A study of Drosophila melanogaster with 33 samples.

Results

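Loss of the kinase gene warts (wts) and expression of yki3SA, a pair of ways of releasing the growth regulator Yorkie (Yki), were compared in eye-antennal imaginal discs of Drosophila melanogaster, paired epithelial sacs of the larva from which the adult eye, antenna and much of the head arise. The comparison used the 15 of 33 libraries that share 1 count table and 1 sequencing run. Discs of genotype y w ey-FLP/y w with FRT82B cl- over FRT82B wts149 (called wts-, 2 libraries) were set against discs with FRT82B cl- over FRT82B without the wts allele (called eyFLP ctrl, 3 libraries). Discs of genotype FRT19A over tub-Gal80 FRT19A, with ey-FLP, Act 5C<y+<Gal4 and UAS-GFP, that carried UAS-yki3SA (called yki3SA, 5 libraries) were set against discs of the same make-up without that transgene (called MARCM ctrl, 5 libraries). All larvae were kept at 25°C and dissected on day 5 after eggs were laid, and each sample pooled 30 or more discs. The rule that defines the comparison takes the change in wts- relative to eyFLP ctrl and subtracts the change in yki3SA relative to MARCM ctrl, gene by gene, and names no genes in advance.

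The Hippo pathway is a kinase cascade in which the kinase Warts (Wts) phosphorylates Yki and keeps it out of the nucleus. Unphosphorylated Yki enters the nucleus, binds the DNA-binding protein Scalloped (Sd) and switches on genes for growth and survival, among them genes that feed back on the pathway itself. Loss of wts releases the Yki that the cell makes, whereas yki3SA is a form with altered inhibitory phosphorylation sites that is made from a transgene. In the developing eye, excess Yki activity is known for overgrowth of undifferentiated tissue and for delayed or lost differentiation of photoreceptors.

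The models differ in more than the way Yki was released. In the eyFLP discs the FLP recombinase under the eyeless enhancer makes clones on chromosome arm 3R, and the homologous arm carries cl-, a cell-lethal mutation in stocks of this kind, so that the disc comes to consist largely of the other clone. In the MARCM discs (mosaic analysis with a repressible cell marker) clones on the X chromosome lose the repressor Gal80 and express yki3SA and GFP, while cells outside the clones express neither and remain in the library. Clone coverage, driver, chromosome arm and strain background therefore go with the model, and the effect of the lesion and that of the model cannot be told apart. In whole discs, fewer cells of a type and less RNA per cell cannot be told apart either. Nothing in the labels states that replicates are separate crosses, so the p-values reflect sample-to-sample spread that may be technical.

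Libraries held 5838706 to 15273835 counts, and 7151 to 8231 genes per library had at least 10 counts. The lowest correlation of a library within its own group exceeded its highest with any other group, except for MARCM ctrl replicate 4 (0.9766 within and 0.9771 outside). The summed level of the retinal determination list was between 3079 and 5685 CPM (counts scaled to library size) in every library, and that of the antennal list between 3058 and 5494 CPM. Both sums were close to each other in each library (3890 and 3928 CPM in wts- replicate 1), so they are no separate checks. Such sums follow abundant members and do not show how most members changed. Levels below are CPM scaled with TMM factors. Changes are log2 fold changes ± standard error, called the wts response (wts- against eyFLP ctrl), the yki3SA response (yki3SA against MARCM ctrl) and the difference of responses (wts response minus yki3SA response). A gene was called where edgeR's quasi-likelihood test gave an adjusted p under 0.05 over all 8499 genes tested.

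Levels of yki were 67.5 and 46.8 CPM in wts- and 63.2, 72.3 and 52.8 CPM in eyFLP ctrl. In the MARCM model they were 45.6, 38.5, 41.5, 41.1 and 67.4 CPM in yki3SA and 23.8, 16.9, 23.9, 46.5 and 51.0 CPM in MARCM ctrl. The groups of each model overlap, and neither response was called (-0.13 ± 0.39 for wts- and 0.52 ± 0.28 for yki3SA, adjusted p = 0.849 and 0.145). The sources used here do not say whether the transgene carries the 3' end of yki, and the tags therefore do not check it. Transcripts of wts rose in both models, at 231 and 204 CPM in wts- against 145, 146 and 155 CPM in eyFLP ctrl, and at 467, 402, 387, 343 and 322 CPM in yki3SA against 186, 196, 202, 161 and 160 CPM in MARCM ctrl. The responses were 0.55 ± 0.14 in wts- and 1.08 ± 0.10 with yki3SA. Their difference (-0.54 ± 0.17, adjusted p = 0.0435) lost its call without either wts- replicate, any eyFLP ctrl replicate, yki3SA replicate 1, 2 or 3 or MARCM ctrl replicate 1, 4 or 5 (-0.435 to -0.625). Reads from the 3' end do not check an allele whose change may lie elsewhere in wts.

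The wts response was called for 2427 genes (28.6% of those tested), 1115 upward (13.1%) and 1312 downward (15.4%). The yki3SA response was called for 4026 (47.4%), 2000 upward (23.5%) and 2026 downward (23.8%). It rests on 10 libraries and the wts response on 5, so that the counts of calls do not compare the sizes of the responses. Over all genes tested the median absolute change was 0.313 in wts- and 0.321 with yki3SA. Both lists shared 1956 genes, of which 1861 moved in the same direction, which is 76.7% of the wts calls and 46.2% of the yki3SA calls. For 932 of these 1861 genes (50.1%) the 95% interval of the difference lay within -1 and 1, that is, the responses were within a factor of 2 of each other; a few of these genes also passed the test of the difference. The responses had a Pearson's r of 0.717 across all 8499 genes, which are no independent replicates, and a Spearman's rho of 0.645. Genes that fell in both models had a median absolute change of 2.31 in wts- and 1.76 with yki3SA (1074 genes), but of 1.20 and 1.19 among the 629 of them with a mean of 10 CPM or more in both control groups. Genes that rose in both rose by 0.816 and 0.702 (787 genes).

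The difference of responses was called for 989 genes (11.6%), of which 412 (4.85%) had the more positive response in wts- and 577 (6.79%) the more positive response with yki3SA. At an unadjusted p under 0.05 there were 1967. The 989 genes fall into kinds that the plot of both responses separates. In 95 (1.12% of genes tested) both responses were called with opposite signs, 52 upward in wts- and downward with yki3SA (0.612%) and 43 the other way (0.506%). In 390 both responses had the same sign and differed in size: 226 fell further in wts-, 33 fell further with yki3SA, 78 rose further in wts- and 53 rose further with yki3SA. In 496 only 1 response was called, with 105 up and 69 down in wts- and 181 up and 141 down with yki3SA, and in 8 neither was. Same-numbered yki3SA and MARCM ctrl libraries deviated together, although the labels state no pairing. With these pairs as a block 1540 genes were called in the difference (658 and 882), 149 of them opposite and 817 with 1 response called. Without wts- replicate 1 the count was 627, with 56 opposite and 303 with 1 response called, and 584 of the genes called in both had close responses. Without wts- replicate 2, 62 were opposite, 248 differed in size and 590 were close.

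**Figure D1:**
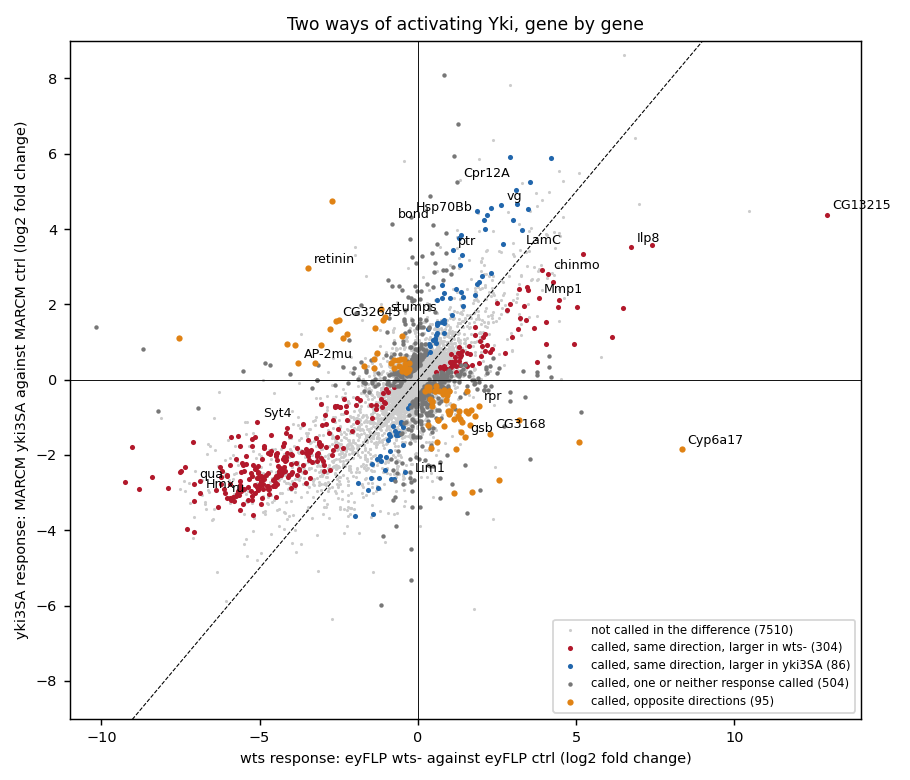
Each point is 1 of 8499 genes, with the log2 fold change of wts- against eyFLP ctrl on the x axis and of yki3SA against MARCM ctrl on the y axis; the dashed line marks equal responses and colours mark the kinds of difference. The 226 genes that fell in both models and further in wts- lie in the lower left, above the dashed line. The quadrants of opposite sign hold many genes, of which 95 were called in both responses and in the difference. Over all 8499 genes, 72.8% had responses of the same sign.

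The baselines also differed. Between eyFLP ctrl and MARCM ctrl 590 genes (6.94%) were called, 276 of them higher in eyFLP ctrl (3.25%) and 314 lower (3.69%), and 151 of the 989 genes were among them. Without eyFLP ctrl replicate 1 or 2 the controls differed in 350 and 319 genes, and with the MARCM pairs as a block in 1901. In 105 of the 989 the difference between the controls was larger than that between wts- and yki3SA. The eye pigment transporter gene w, named as mutant in the eyFLP genotypes, was among the 151 (controls differing by -4.06), at 0.381 and 0.503 CPM in wts- and 1.28 to 1.72 CPM in eyFLP ctrl, against 29.0 to 38.1 CPM in yki3SA and 21.9 to 26.8 CPM in MARCM ctrl. A few of the largest differences rest on a control group and are given here for that reason only. Cyp6a17, a cytochrome P450 gene, had 27.0 and 26.0 CPM in wts- but 2 counts in all 3 eyFLP ctrl libraries together, a ratio of 375 with a 95% counting interval of 103 to 3102. In MARCM ctrl it stood at 11.0 to 15.5 CPM, against 1.24 to 4.96 CPM in yki3SA. The odorant receptor gene Or49b had no counts in wts- and MARCM ctrl, 12.4 to 14.9 CPM in eyFLP ctrl and 1 count in yki3SA, and the chemosensory gene CheB38c had 8.36 to 13.6 CPM in eyFLP ctrl and at most 1.10 CPM in any other library. CG4210 was at 11.7 and 11.2 CPM in wts- and 8.39 to 9.39 CPM in eyFLP ctrl, with 3.98 to 6.32 CPM in yki3SA and at most 0.391 CPM in MARCM ctrl. CG17109 was at 6.47 CPM or more in MARCM ctrl and at most 1.83 CPM in all other libraries, and its difference of 5.08 ± 1.09 was 3.67 and not called without wts- replicate 2.

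Among the genes that rose in wts- and fell with yki3SA, after Cyp6a17, were the paired-box transcription factor genes gooseberry (gsb) and gooseberry-neuro (gsb-n). They are neighbours on chromosome arm 2R, known for segment polarity and neural patterning in the embryo. The first, gsb, stood at 42.9 and 38.6 CPM in wts- and 14.7, 15.1 and 14 CPM in eyFLP ctrl, and at 2.19, 3.85, 3.47, 3.91 and 4.97 CPM in yki3SA and 8.90, 11.1, 8.60, 13.4 and 11.1 CPM in MARCM ctrl. All wts- libraries lie above their controls and all yki3SA libraries below theirs, with responses of 1.48 ± 0.21 and -1.54 ± 0.18 (difference 3.02 ± 0.28, adjusted p = 7.04e-07). Its neighbour gsb-n had 21.8 CPM in both wts- libraries and 6.02 to 7.84 CPM in eyFLP ctrl, against 1.79 to 3.82 CPM in yki3SA and 5.20 to 7.22 CPM in MARCM ctrl, a difference of 2.84 ± 0.30 (adjusted p = 4.1e-06).

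The largest difference relative to its error among the 10 genes named for this pattern was that of CG3168. It stood at 115 and 117 CPM in wts- and 25.8, 22.0 and 24.2 CPM in eyFLP ctrl, and at 12.5, 10.6, 11.5, 11.9 and 9.32 CPM in yki3SA and 39.6, 29.2, 23.3, 31.0 and 28.0 CPM in MARCM ctrl (difference 3.71 ± 0.20, adjusted p = 2.65e-09). Every wts- library lies above its controls and every yki3SA library below its own. Msr-110 was the most abundant of the 10 genes named, with 672 and 554 CPM in wts- and 228 to 279 CPM in eyFLP ctrl, against 110 to 134 CPM in yki3SA and 226 to 258 CPM in MARCM ctrl. The others were the myosin light chain gene Mlc2 (difference 2.52 ± 0.53), the odorant-binding protein gene Obp56a (3.05 ± 0.50), the phosphodiesterase gene Pde1c (4.25 ± 0.63), CG14741 (2.20 ± 0.29) and CG12643 (2.76 ± 0.25). The phosphodiesterase gene Pde1c had 18.2 and 26.9 CPM in wts- and at most 3.21 CPM in eyFLP ctrl, and 0.244 to 2.64 CPM in yki3SA and 1.18 to 4.10 CPM in MARCM ctrl, where the last pair overlap. Those groups overlap for Mlc2 as well, at 4.25 to 15.3 CPM in yki3SA and 9.22 to 23.7 CPM in MARCM ctrl.

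From the gene lists, a cell death regulator and a selector belong to this kind. The cell death gene reaper (rpr), which blocks the inhibitor of caspases Diap1, had 31.9 and 51.6 CPM in wts- and 12.7, 9.97 and 10.6 CPM in eyFLP ctrl. In the other model it had 2.76, 6.27, 8.68, 8.63 and 4.97 CPM in yki3SA and 9.15, 12.2, 11.4, 8.26 and 9.14 CPM in MARCM ctrl. Both wts- libraries lie above their controls, while the yki3SA and MARCM ctrl libraries overlap (responses 1.91 ± 0.31 and -0.69 ± 0.24, difference 2.6 ± 0.40, adjusted p = 0.000238). It was the only one of 13 apoptosis genes tested that was called in the difference (7.69%, against 11.6% of all genes). The homeobox gene tailup (tup), a selector of the dorsal thorax, stood at 30.9 and 37.7 CPM in wts- and 21.3 to 22.8 CPM in eyFLP ctrl, against 5.44 to 10.5 CPM in yki3SA and 15.6 to 20.7 CPM in MARCM ctrl (difference 1.70 ± 0.25).

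The opposite pattern, a fall in wts- with a rise with yki3SA, was led by retinin, which encodes a corneal lens protein. It stood at 0.190 and 0.302 CPM in wts- and 2.40, 2.67 and 3.39 CPM in eyFLP ctrl, and at 13.2, 10.3, 11.3, 15.7 and 16.3 CPM in yki3SA and 2.69, 0.844, 0.880, 1.73 and 2.26 CPM in MARCM ctrl. The groups do not overlap in either model, and the difference was -6.42 ± 0.61 (adjusted p = 1.07e-06). CG32645 had 2.00 and 2.01 CPM in wts- and 8.82, 11.0 and 16.2 CPM in eyFLP ctrl, against 41.5 to 46.7 CPM in yki3SA and 12.3 to 17.4 CPM in MARCM ctrl (difference -4.13 ± 0.29). The FGF receptor adaptor gene stumps, needed downstream of fibroblast growth factor signals, was at 6.48 and 4.53 CPM in wts- and 9.97 to 12.9 CPM in eyFLP ctrl, and at 40.1 to 58.5 CPM in yki3SA and 12.1 to 19.2 CPM in MARCM ctrl (difference -2.70 ± 0.27, adjusted p = 1.82e-06).

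A further gene of this pattern, AP-2mu, encodes the medium chain of the clathrin adaptor complex AP-2, used in endocytosis. It had 2.57 and 2.01 CPM in wts- and 31.7, 31.5 and 32 CPM in eyFLP ctrl, whereas yki3SA libraries had 53.1, 58.3, 54.3, 37.0 and 43.3 CPM and MARCM ctrl had 38.4, 36.8, 33.1, 37.1 and 36.5 CPM. Its fall in wts- (-3.78 ± 0.22) therefore stands beside a small rise with yki3SA (0.43 ± 0.11), in which 1 yki3SA library lies within the range of its controls. The other genes named for this pattern included CG3097, gk, Cyp310a1, the mRNA export factor gene Ref1, the noncoding RNA CR43496 and CG7675, with differences from -1.10 ± 0.16 (Ref1) to -3.97 ± 0.34 (CG3097). Among them CG3097, gk and Cyp310a1 fell with yki3SA in another sequencing run of the series, run 2 (-1.90, -0.77 and -1.59). The yki3SA response there was -0.02 for Ref1, 1.00 for CR43496 and 1.60 for CG7675. For CG12643, named for the other pattern, it was 0.19.

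**Figure D2:**
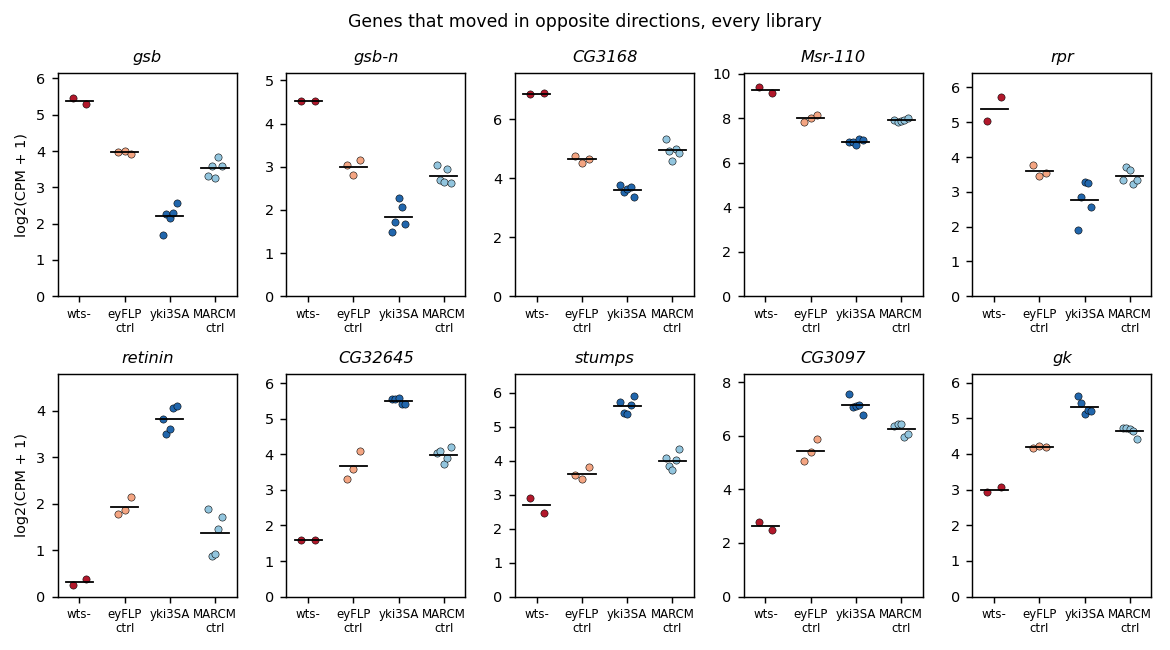
Every point is 1 library, with log2(CPM + 1) on the y axis and the groups wts-, eyFLP ctrl, yki3SA and MARCM ctrl from left to right; bars are group means of the plotted values. In the upper row wts- lies above its controls and yki3SA below its own, in the lower row the order is reversed; only rpr shows overlap between yki3SA and MARCM ctrl.

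Genes of eye differentiation fell in both models and further in wts-. Of 31 photoreceptor and ommatidial genes tested, 27 fell in wts- (median of all 31, -3.41) and 27 fell with yki3SA (median -2.32). Over all genes tested, 15.4% fell in wts- and 23.8% with yki3SA. The response was lower in wts- for 17 of the 31, against 6.79% of all genes. One, orthodenticle (oc, named after its value was seen), went the other way, rising by 0.33 ± 0.11 in wts- and falling by 1.20 ± 0.08 with yki3SA. The homeobox gene Hmx had 0.286 and 0.403 CPM in wts- and 40.8, 49.6 and 35.5 CPM in eyFLP ctrl, and 2.92, 3.41, 3.82, 3.44 and 5.69 CPM in yki3SA and 29.5, 31.5, 24.4, 34.5 and 34.0 CPM in MARCM ctrl. Both wts- and yki3SA libraries lie far below their controls, with a wts response of -6.89 ± 0.36, a yki3SA response of -3.01 ± 0.16 and a difference of -3.88 ± 0.44 (adjusted p = 8.38e-06). The rhomboid protease gene roughoid (ru), which releases EGF receptor ligands, had 1.33 and 1.21 CPM in wts- and 82.2 to 87.7 CPM in eyFLP ctrl, against 4.63 to 10.4 CPM in yki3SA and 63.9 to 86.3 CPM in MARCM ctrl (difference -2.90 ± 0.35). The pair-rule gene run, a marker of particular photoreceptors, had 3 counts in both wts- libraries together, a ratio of 0.0123 to eyFLP ctrl with a 95% counting interval of 0.00252 to 0.0361, and averaged 1.63 CPM in yki3SA and 11.0 CPM in MARCM ctrl.

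Neuronal genes followed the same course. Of 24 tested, 21 fell in wts- (median -3.53) and 20 with yki3SA, where 2 rose (median -2.01). Over all genes tested, 15.4% fell in wts-, and 23.8% fell and 23.5% rose with yki3SA. The response was lower in wts- for 16 of the 24 (66.7%, against 6.79% of all genes). The synaptotagmin gene Syt4, a vesicle protein gene, had 1.43 and 1.51 CPM in wts- and 45.0, 45.4 and 58.6 CPM in eyFLP ctrl, while yki3SA libraries had 21.0 to 27.8 CPM and MARCM ctrl libraries 47.3 to 55.9 CPM (difference -3.93 ± 0.23, adjusted p = 2.65e-09). Syt4 was named as 1 of the 5 genes with the largest such difference and is no member of the list. Its yki3SA response was only -1.13 ± 0.10. CG34391 (DIP-delta), an immunoglobulin-domain protein gene of neurons, fell to 0.286 and 0.101 CPM in wts-, against 15.6 to 17.8 CPM in eyFLP ctrl, and to 1.22 to 1.82 CPM in yki3SA, against 14.8 to 17.1 CPM in MARCM ctrl. The RNA-binding protein gene fne had 0.857 and 1.21 CPM in wts- and 8.36 to 10.1 CPM in eyFLP ctrl, with no called change with yki3SA (-0.02 ± 0.19). The actin-bundling villin gene quail (qua) had the largest difference of this kind, at 0.286 and 0.101 CPM in wts- and 27.7 to 28.5 CPM in eyFLP ctrl, against 2.08 to 5.28 CPM in yki3SA and 19.9 to 27.7 CPM in MARCM ctrl (-4.31 ± 0.52).

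Upstream of photoreceptors, the retinal determination gene so (sine oculis) fell to 10.6 and 8.25 CPM in wts-, against 68.9 to 90.9 CPM in eyFLP ctrl, and to 10.9 to 18 CPM in yki3SA, against 41.6 to 64.4 CPM in MARCM ctrl (difference -1.34 ± 0.26, adjusted p = 0.00186). Its controls differed by 0.60, also called. Of 14 retinal determination genes 10 fell in wts- and 12 with yki3SA, and 4 had the lower response in wts- and 2 the lower response with yki3SA. The partners eya and dac were among the 4, with differences of -2.18 and -1.96, but dac lost its call without wts- replicate 2 (-1.86) and with a replicate block over all libraries (-1.98, adjusted p = 0.0531), and eya without either wts- replicate, eyFLP ctrl replicate 1 or yki3SA replicate 4 (-1.97 to -2.42). Notch pathway genes fell too, 14 of 20 in wts- and 17 of 20 with yki3SA. Of all genes, 15.4% fell in wts- and 23.8% with yki3SA. The basic helix-loop-helix repressor genes of the E(spl) complex, direct targets of Notch, fell further in wts-. E(spl)mgamma-HLH averaged 10.9 CPM in wts- and 384 CPM in eyFLP ctrl, against 52.0 CPM in yki3SA and 419 CPM in MARCM ctrl (difference -2.12 ± 0.24), E(spl)mdelta-HLH differed by -1.69 ± 0.34 and E(spl)m8-HLH by -1.37 ± 0.26. The proneural and antennal gene pair dan and danr belongs with them (-2.35 ± 0.54 and -1.15 ± 0.31), although without wts- replicate 2 neither was called (-2.03 and -0.68).

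Temporal identity genes, which set the developmental age of a tissue, also differed. Eip93F, an ecdysone-induced factor of the adult programme, had 1.05 and 0.503 CPM in wts- and 21.6, 22.4 and 34.9 CPM in eyFLP ctrl, against 2.64 to 4.45 CPM in yki3SA and 14 to 23.8 CPM in MARCM ctrl (difference -2.77 ± 0.48, adjusted p = 0.000611). The microRNA host transcript let-7-C stood at 1.43 and 0.302 CPM in wts- and 25.2, 34.0 and 42.1 CPM in eyFLP ctrl, against 2.20 to 4.32 CPM in yki3SA and 8.88 to 14.8 CPM in MARCM ctrl (difference -3.47 ± 0.48), and here the controls differed as well (1.58, called). The early-acting factor chinmo, which holds discs in a young state, rose in both models, to 941 and 1056 CPM in wts-, against 50.9 to 66.2 CPM in eyFLP ctrl, and to 419 to 603 CPM in yki3SA, against 62.7 to 101 CPM in MARCM ctrl. Its rise was larger in wts- by 1.31 ± 0.24 (adjusted p = 0.00158). All 7 temporal genes tested changed in both models in the same direction, and 4 differed in size (57.1%, against 11.6% of all genes).

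Run 2 gave another measure of the yki3SA response, with clones on FRT42D, the driver tub-Gal4, 1 yki3SA library and 2 controls, so that the lone library was assumed to vary like the others. There yki itself stood at 1986 CPM with yki3SA and 58.9 and 61.5 CPM in the controls. In that run 3581 of 9453 genes (37.9%) were called, and set against the same eyFLP libraries the difference was called for 778 (8.23%), 415 higher (4.39%) and 363 lower (3.84%) in wts-. The yki3SA responses of the runs themselves differed in 1040 of the 9453 genes (11%), with 501 higher (5.3%) and 539 lower (5.7%) in run 2. The 226 genes that fell further in wts- had a median wts response of -4.48 and a median yki3SA response of -2.35 in run 1, but -4.36 in run 2. Of these 226, 123 kept the sign of the difference with run 2, 22 of them with a call, and 9 were called with the other sign. For example Hmx fell by 5.23, ru by 5.54, so by 2.81 and dac by 4.30 with yki3SA in run 2, and chinmo rose by 4.13; none of these 5 genes was called in the difference there (adjusted p from 0.281 to 1). With run 2 the difference turned sign, without a call, for fne, dac, danr, the 3 E(spl) genes, Eip93F, let-7-C, Cyp310a1 and CG17109. Syt4 was an exception, with a yki3SA response of -0.79 in run 2 and a difference of -4.25 that was called (adjusted p = 3.3e-09). Of the opposite kinds, 50 of 52 genes that rose in wts- (34 called) and 39 of 43 that fell in wts- (24 called) had the same sign with run 2. So had 57 of 78 genes that rose further in wts-, 47 of 53 that rose further with yki3SA and 32 of 33 that fell further with yki3SA. The yki3SA response itself kept its run 1 sign in run 2 for fewer opposite genes, 37 of the 52 and 32 of the 43. The kinds were not tested against each other, the eyFLP libraries are the same in both differences and the genes were chosen on run 1. With run 2, gsb had a difference of 3.09, CG3168 of 3.04, retinin of -5.39, AP-2mu of -4.01 and stumps of -3.06, all called.

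In optix libraries yki3SA was expressed without clones, from optix-Gal4, in 2 libraries of genotype w/y v with UAS-yki3SA, set against 3 with UAS-lucRNAi. There 1699 of 8693 genes (19.5%) were called, 784 upward (9.02%) and 915 downward (10.5%). Of the 226 genes that fell further in wts-, 198 fell with optix-driven yki3SA and 8 rose (median -2.91). The 52 genes that rose in wts- and fell with MARCM yki3SA had a median of 0.41, and 19 of them rose and 3 fell. The 43 of the opposite kind had a median of -0.07, and 6 rose and 6 fell; retinin rose by 4.14.

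**Figure D3:**
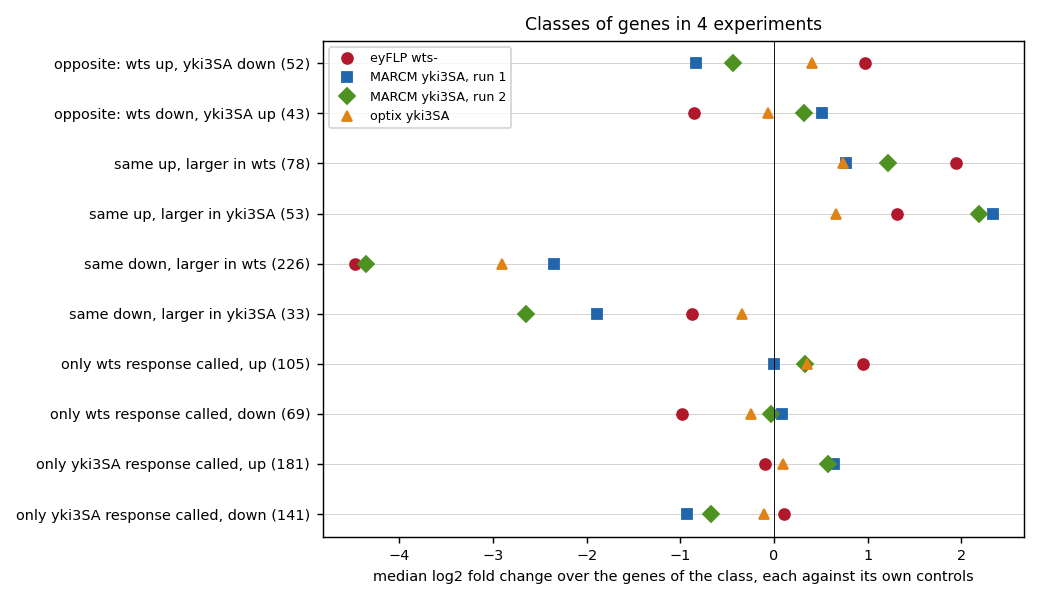
Each row is a kind of gene defined on run 1, with its number of genes, and each symbol is the median log2 fold change of those genes in 1 experiment against its own controls; the medians of wts- (red circles) and MARCM yki3SA run 1 (blue squares) follow from how the genes were chosen. For the 226 genes that fell further in wts-, the run 2 median (-4.36) lies next to the wts- median (-4.48), and for the 33 that fell further with yki3SA it (-2.65) lies beyond that of run 1 (-1.89).

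Many targets of the Jun kinase (JNK) pathway and wound response rose in both models, and some rose further in wts-. Of 29 such genes tested 19 rose in each model (median 1.66 in wts- and 0.83 with yki3SA). The response in wts- was higher in 6 and lower in 3, against 4.85% and 6.79% of all genes, and 6 had close responses. Over all genes tested, 13.1% rose in wts- and 23.5% with yki3SA. Insulin-like peptide 8 (Ilp8), a relaxin-like hormone that delays metamorphosis when discs are damaged or overgrown, had 121 and 116 CPM in wts- and 1.26, 1.18 and 0.848 CPM in eyFLP ctrl. It had 4.47, 6.71, 9.72, 8.90 and 8.28 CPM in yki3SA and 0.839, 0.965, 0.978, 0.384 and 0.251 CPM in MARCM ctrl. No groups overlap, and the level in wts- was over 10 times that of any yki3SA library (difference 3.22 ± 0.50, adjusted p = 0.000214). The matrix metalloproteinase gene Mmp1, which cleaves basement membrane, had 334 and 348 CPM in wts- and 20.8, 18.5 and 33.3 CPM in eyFLP ctrl, against 111 to 138 CPM in yki3SA and 22.0 to 45.0 CPM in MARCM ctrl (difference 1.65 ± 0.32).

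The JNK phosphatase gene puckered (puc), a feedback target of the pathway, stood at 225 and 255 CPM in wts- and 72.5 to 81.2 CPM in eyFLP ctrl, against 102 to 140 CPM in yki3SA and 69.1 to 87.9 CPM in MARCM ctrl (difference 0.98 ± 0.16, adjusted p = 0.000346). The filamin gene cheerio (cher), an actin crosslinker, had 112 and 126 CPM in wts- and 8.69 to 13.7 CPM in eyFLP ctrl, against 52.3 to 70.8 CPM in yki3SA and 17.3 to 24.8 CPM in MARCM ctrl (difference 1.84 ± 0.21). The controls of cher differed by -0.86, which was called. In run 2 the yki3SA response was -0.16 for Mmp1, 1.25 for Ilp8, 0.66 for puc and 3.35 for cher, so that the difference was called for Mmp1 and Ilp8 (4.02 and 5.53) and not for puc and cher (1.04 and 0.11). Among JNK components the TNF ligand gene egr fell in both models. The recognition protein gene PGRP-LA, a member of the wound list, was without counts in wts-, at least 11.1-fold lower than in eyFLP ctrl against a floor of 3 counts over both libraries, and averaged 1.20 CPM in yki3SA and 3.76 CPM in MARCM ctrl.

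A list of 9 peripodial markers includes Mmp1 and puc themselves. Its summed level was 971 to 1013 CPM in wts- and 470 to 498 CPM in eyFLP ctrl. It was 629 to 700 CPM in yki3SA and 443 to 486 CPM in MARCM ctrl, with no member at 0 in a whole group. By the levels above, Mmp1 and puc make up most of the sum in wts- and a smaller part in the other groups. The sum is therefore no separate measure, and the part of peripodial cells in the result was not tested.

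Growth-related targets differed in part. Of 20 Yki target genes tested, 13 rose in wts- and 14 with yki3SA, 5 had the higher response in wts- and 2 the higher response with yki3SA (35.0% in all), and 9 had close responses. Over all genes tested, 13.1% rose in wts-, 23.5% rose with yki3SA and 11.6% were called in the difference. The Myc gene (dm in the table), the growth factor of ribosome production, had 799 and 744 CPM in wts- and 404 to 410 CPM in eyFLP ctrl, against 451 to 556 CPM in yki3SA and 396 to 428 CPM in MARCM ctrl. Its rise was called in both models and larger in wts- (0.92 ± 0.09 and 0.27 ± 0.06, difference 0.65 ± 0.11, adjusted p = 0.000351). With run 2 the dm response to yki3SA was 1.01 and the difference turned to -0.06. The kinase four-jointed (fj), which acts on the cadherins Fat and Dachsous, had 847 and 1053 CPM in wts- and 259 to 291 CPM in eyFLP ctrl, against 606 to 745 CPM in yki3SA and 264 to 315 CPM in MARCM ctrl, a difference of 0.59 ± 0.13 that was 0.44 and not called without wts- replicate 2. Of 36 cell cycle and DNA replication genes, 11 rose in wts- and 21 with yki3SA, 14 had close responses in the sense above, and 1 was called in the difference (2.78%). That 1 was CycE (-0.46 ± 0.14), whose call was lost without either wts- replicate, eyFLP ctrl replicate 1, yki3SA replicate 1, 2, 3 or 4 or MARCM ctrl replicate 1, 4 or 5 (-0.33 to -0.54).

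Insulin and TOR genes had 8 of 21 members with the higher response in wts- and none with the lower (38.1% called, against 11.6% of all genes, with 4.85% higher). The growth hormone gene Ilp6 had 22.5 and 25.6 CPM in wts- and 5.63 to 7.56 CPM in eyFLP ctrl, against 6.01 to 7.81 CPM in yki3SA and 5.57 to 10.7 CPM in MARCM ctrl (difference 1.99 ± 0.29, adjusted p = 9.8e-05). The translation repressor gene Thor (4E-BP) had 52.0 and 39.7 CPM in wts- and 1.49, 2.86 and 3.07 CPM in eyFLP ctrl, with 21.6, 13.1, 11.3, 8.97 and 15.2 CPM in yki3SA and 7.55, 46.7, 1.86, 4.23 and 9.72 CPM in MARCM ctrl. Replicate 2 of MARCM ctrl stands apart at 46.7 CPM. The difference of Thor (4.13 ± 1.23, adjusted p = 0.0492) lost its call with the replicate block within the MARCM libraries (3.62, adjusted p = 0.0512) and without any 1 of the eyFLP or yki3SA libraries or MARCM ctrl replicate 5 (3.88 to 4.35).

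The largest positive differences outside the opposite kinds included CG13215, Tdc2, PGRP-SA, CG34227 and Tdc1. The tyrosine decarboxylase genes Tdc1 and Tdc2, which lie side by side and make tyramine, averaged 43.9 and 18.4 CPM in wts- and 0.245 and 0.256 CPM in eyFLP ctrl, against 4.25 and 1.14 CPM in yki3SA and 0.323 and 0.520 CPM in MARCM ctrl (differences 3.84 ± 0.90 and 5.02 ± 0.70). In run 2 Tdc2 stood at 12.6 CPM with yki3SA and at 0.094 and 0 CPM in the controls. The peptidoglycan recognition gene PGRP-SA, which activates the Toll pathway, had 49.2 and 36.3 CPM in wts- and 1.09 to 1.80 CPM in eyFLP ctrl, against 2.43 to 8.04 CPM in yki3SA and 1.99 to 4.28 CPM in MARCM ctrl (difference 4.00 ± 0.53). CG13215 had 95 and 88.6 CPM in wts- and no counts in eyFLP ctrl, at least 866-fold higher against a floor of 3 counts over the 3 control libraries, and 0.812 to 2.90 CPM in yki3SA with at most 0.168 CPM in MARCM ctrl. CG34227 differed by 3.86 ± 0.42, with only the wts response called, and CG44085 by 3.29 ± 0.26. The cuticle gene Cpr66D had 93.3 and 54.2 CPM in wts- and 17.4 to 22.8 CPM in eyFLP ctrl, with no called change with yki3SA (-0.26 ± 0.19).

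In the other direction, 3 of 8 nuclear factors of the Hippo pathway, vg, sd and Tgi, had the higher response with yki3SA and none the lower. That is 37.5% called, against 11.6% of all genes. Vestigial (vg), the selector of wing identity that binds Sd in place of Yki, had 17.5 and 10.5 CPM in wts- and 1.26, 2.47 and 2.97 CPM in eyFLP ctrl. With yki3SA it had 101, 88.2, 95.1, 74.9 and 80.8 CPM, against 3.78, 3.86, 4.40, 3.59 and 2.26 CPM in MARCM ctrl. Both treated groups lie above all controls, and the rise was larger with yki3SA (2.63 ± 0.28 and 4.63 ± 0.18, difference -1.99 ± 0.37, adjusted p = 0.00108). The Yki partner gene sd had 372 and 359 CPM in wts- and 345 to 365 CPM in eyFLP ctrl, against 530 to 603 CPM in yki3SA and 330 to 406 CPM in MARCM ctrl, with a called rise with yki3SA (0.62 ± 0.07, difference -0.57 ± 0.12, adjusted p = 0.00256). Tgi, which encodes a co-repressor that competes with Yki for Sd, had 17.4 and 18.4 CPM in wts- and 19.4 to 25.5 CPM in eyFLP ctrl, against 27.6 to 38.8 CPM in yki3SA and 20.7 to 25.1 CPM in MARCM ctrl. Its difference (-0.84 ± 0.20) was -0.80 without wts- replicate 1, with an adjusted p of 0.0536.

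The upstream gene kibra, a known Yki target that activates the kinase cascade, rose to 252 and 258 CPM in wts-, against 49.6 to 55.4 CPM in eyFLP ctrl, and to 318 to 346 CPM in yki3SA, against 42.1 to 49.2 CPM in MARCM ctrl (difference -0.55 ± 0.11, adjusted p = 0.00296). Its interval lay within -1 and 1, so that it also counts as close, as do wts, fj and the upstream gene expanded (ex), where the responses were 1.28 in wts- and 1.62 with yki3SA. Of 27 genes of the Hippo core and its upstream branches, 9 rose and 3 fell in wts-, and 9 rose and 6 fell with yki3SA. Over all genes tested, 13.1% rose and 15.4% fell in wts-, and 23.5% rose and 23.8% fell with yki3SA. Of the 27, 4 were called in the difference (14.8%, against 11.6% of all genes), namely wts, kibra, fj and CG4221 (Fbxl7, a ligase gene of the Fat branch). The difference of CG4221 (-0.74 ± 0.23) lost its call without either wts- replicate, eyFLP ctrl replicate 1 or 3, yki3SA replicate 1, 2 or 4 or MARCM ctrl replicate 1, 4 or 5 (-0.595 to -0.843). In run 2 vg, sd, Tgi, kibra and CG4221 rose with yki3SA by 5.07, 1.11, 0.88, 3.76 and 1.42, and all 5 differences were called there with the same sign, from that 1 yki3SA library. The differences of wts and fj with run 2 were -0.48 and 0.49 and not called (adjusted p = 0.201 and 0.13).

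**Figure D4:**
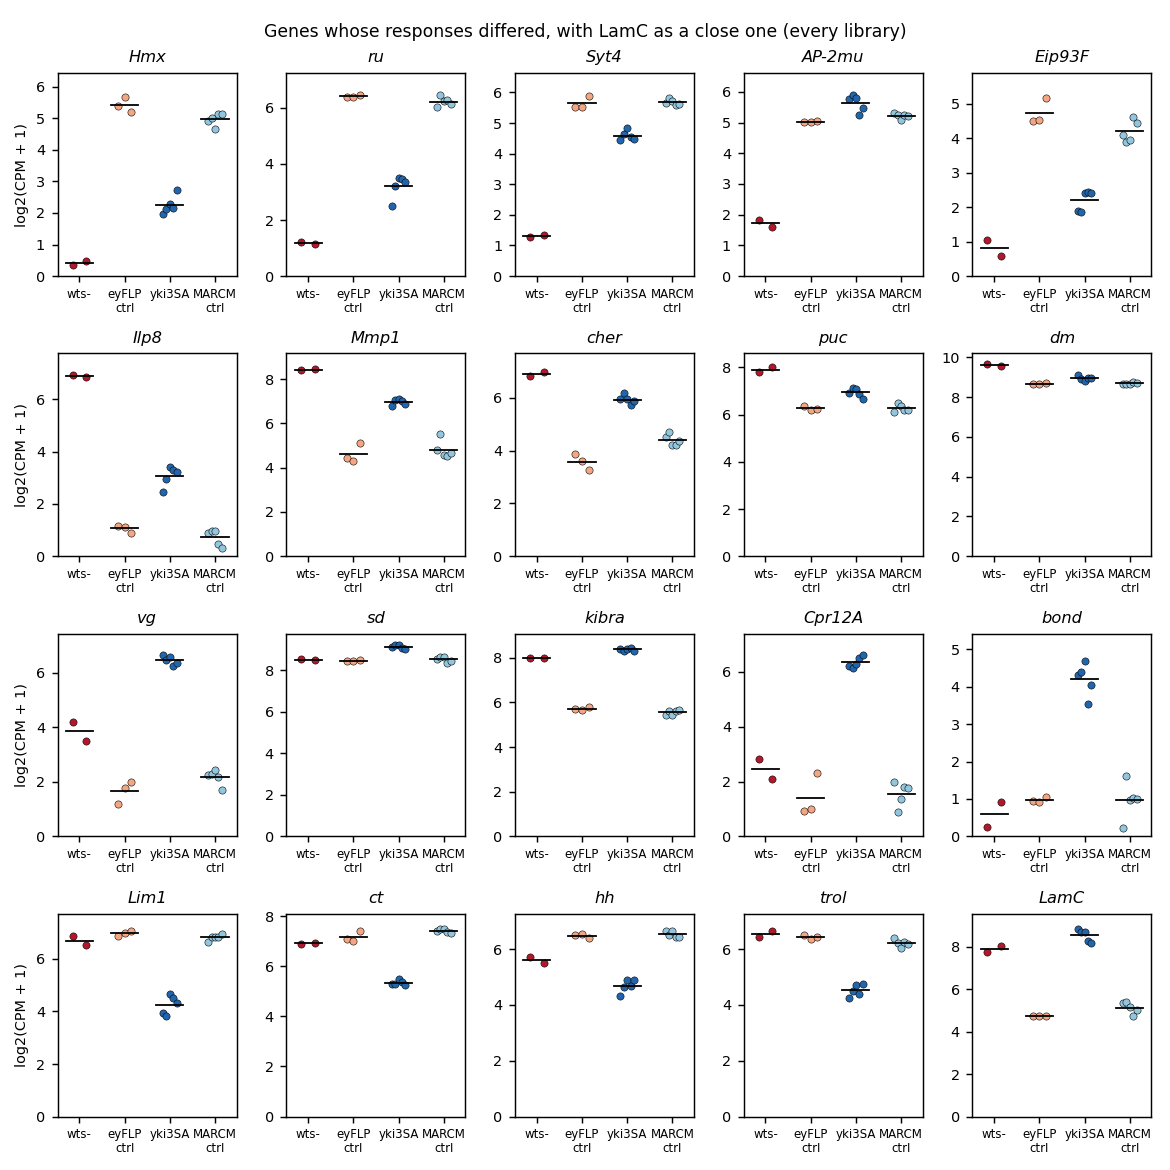
Every point is 1 library, with log2(CPM + 1) on the y axis and the groups wts-, eyFLP ctrl, yki3SA and MARCM ctrl from left to right; bars are group means of the plotted values. The first row shows genes lower in wts- than in yki3SA and the second genes that rose further in wts-. The third row shows genes with the higher response with yki3SA, not all of which rose in wts-. The last row shows genes with the lower response with yki3SA, not all of which fell in wts-. At its end stands LamC, which rose by 3.23 and 3.45.

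Some cuticle, lipid and stress genes had the higher response with yki3SA. Of 21 cuticle genes 6 did and 2 had the higher response in wts- (38.1%). The cuticle protein gene Cpr12A had 6.0 and 3.22 CPM in wts- and 0.916, 0.987 and 3.92 CPM in eyFLP ctrl, which overlap, against 70.2 to 97.0 CPM in yki3SA and 0.844 to 2.94 CPM in MARCM ctrl (difference -3.99 ± 0.62, adjusted p = 0.000486). The chitin-binding protein gene obst-E rose in both models and further with yki3SA (17.0 and 24.3 CPM in wts- and 6.36 to 9.28 CPM in eyFLP ctrl, against 23.4 to 54.1 CPM in yki3SA and 1.93 to 3.62 CPM in MARCM ctrl), and its controls differed by 1.63, also called. The patched-related gene ptr showed no such shift of the controls, at 17.6 and 16.2 CPM in wts- and 6.71 to 9.43 CPM in eyFLP ctrl, against 91.5 to 100 CPM in yki3SA and 6.98 to 10.4 CPM in MARCM ctrl (difference -2.34 ± 0.20). The elongase gene bond, which makes very long chain fatty acids, had 0.190 and 0.906 CPM in wts- and 0.888 to 1.06 CPM in eyFLP ctrl, against 10.7 to 25.0 CPM in yki3SA and 0.168 to 2.05 CPM in MARCM ctrl (difference -4.95 ± 0.84). Among 18 such lipid genes 8 rose and 4 fell in wts-, 12 rose and 4 fell with yki3SA, and 6 were called in the difference (33.3%). Over all genes tested, 13.1% rose and 15.4% fell in wts-, 23.5% rose and 23.8% fell with yki3SA, and 11.6% were called in the difference.

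The heat shock gene Hsp70Bb, 1 of several near-identical Hsp70 copies between which the authors' counting could split reads, had 1.05 and 9.46 CPM in wts- and 3.95 to 7.63 CPM in eyFLP ctrl. With yki3SA it had 161 to 233 CPM, against 7.38 to 13.4 CPM in MARCM ctrl (difference -4.55 ± 0.67). In run 2 its yki3SA response was 1.39 and the difference was -1.58, not called. Cpr12A, obst-E, ptr and bond rose there by 4.22, 4.69, 3.56 and 6.41, each with a called difference. The tracheal and cuticle gene Gasp rose in both models and further with yki3SA, with 432 and 407 CPM in wts- and 236 to 257 CPM in eyFLP ctrl, against 593 to 754 CPM in yki3SA and 202 to 253 CPM in MARCM ctrl (difference -0.76 ± 0.14; with run 2, -0.43 and not called). The summed level of 8 tracheal markers was 2637 to 2899 CPM in wts- and 1711 to 1952 CPM in eyFLP ctrl. It was 2922 to 3514 CPM in yki3SA and 1558 to 2111 CPM in MARCM ctrl. By member, 2 of the 8 rose in wts-, and 3 rose and 1 fell with yki3SA. Over all genes tested, 13.1% rose in wts-, and 23.5% rose and 23.8% fell with yki3SA. The part of tracheal cells in the result was not tested.

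Of 18 antennal selectors tested, 11 fell in wts- and 15 with yki3SA, 2 had the higher response in wts- (Lim1 and ct), 3 the lower and 6 were close (27.8% called). Over all genes tested, 15.4% fell in wts-, 23.8% fell with yki3SA and 11.6% were called in the difference. The LIM-homeobox gene Lim1, which acts in antennal and eye progenitor regions, had 116 and 91.2 CPM in wts- and 115, 127 and 133 CPM in eyFLP ctrl, with no call (-0.27 ± 0.18). With yki3SA it had 14.4, 13.3, 24.3, 21.6 and 19.2 CPM, against 99.8, 115, 112, 114 and 121 CPM in MARCM ctrl (-2.61 ± 0.14), so that only the yki3SA libraries are low (difference 2.34 ± 0.22, adjusted p = 9.7e-07). The homeobox gene cut (ct) showed the same, at 119 and 122 CPM in wts- and 128 to 167 CPM in eyFLP ctrl, against 37.2 to 43.6 CPM in yki3SA and 161 to 179 CPM in MARCM ctrl (difference 1.86 ± 0.13). The homeobox gene unc-4, the secreted glycoprotein gene anachronism (ana) and the T-box gene bifid (bi) fell in both models and further with yki3SA (differences 1.87 ± 0.33, 1.64 ± 0.30 and 0.83 ± 0.16). Of 20 selectors of other discs and segments, 6 had the higher and 2 the lower response in wts-.

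The morphogen gene hedgehog (hh), which drives the furrow of differentiation, had 51.7 and 44.7 CPM in wts- and 84.0 to 91.8 CPM in eyFLP ctrl, against 19.1 to 29.0 CPM in yki3SA and 85.5 to 99.9 CPM in MARCM ctrl (difference 1.01 ± 0.17, adjusted p = 0.000534). Its receptor gene patched (ptc) and the pathway gene roadkill (rdx) differed in the same direction (both 0.61), and ptc lost its call without wts- replicate 1 (0.53). The peptidase gene Ance was the most abundant gene of this kind, at 1351 and 1428 CPM in wts- and 1770 to 1957 CPM in eyFLP ctrl, against 492 to 652 CPM in yki3SA and 2797 to 3338 CPM in MARCM ctrl (difference 2.02 ± 0.14). Its controls differed as well (-0.74, called). In run 2 Lim1, ct, unc-4, ana, bi, hh and Ance fell with yki3SA by 4.18, 3.04, 4.80, 4.16, 3.17, 3.24 and 4.62, by larger values than in run 1. All 7 differences were called with that 1 yki3SA library, whose spread was assumed.

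Several basement membrane genes fell with yki3SA and were not called in wts-. The collagen IV genes vkg and Cg25C (Col4a1) averaged 7.84 and 16.8 CPM in wts- and 6.82 and 16.3 CPM in eyFLP ctrl, against 4.54 and 11.0 CPM in yki3SA and 20.4 and 48.1 CPM in MARCM ctrl (differences 2.35 ± 0.34 and 2.15 ± 0.29). Here the controls differed by -1.58 and -1.56, both called. These collagens are made in large part by hemocytes, the blood cells of the larva. Of all genes, 23.8% fell with yki3SA and 15.4% in wts-. Over the hemocyte list, 12 of 14 markers fell with yki3SA and 1 (lz) in wts-, and 4 were lower in eyFLP ctrl than in MARCM ctrl. Its summed level was 157 to 189 CPM in wts- and 191 to 345 CPM in eyFLP ctrl, and 127 to 156 CPM in yki3SA and 360 to 632 CPM in MARCM ctrl, and no marker was at 0 in a whole group. The list holds vkg and Cg25C themselves. The hemocyte marker Hml was itself at 3.82 and 5.43 CPM in wts- and 3.36 to 9.16 CPM in eyFLP ctrl, against 1.98 to 3.84 CPM in yki3SA and 16.5 to 25.3 CPM in MARCM ctrl. The part of hemocytes in the collagen result was not tested.

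The perlecan gene terribly reduced optic lobes (trol) did not share the shift of the controls. It had 86.2 and 99.2 CPM in wts- and 80.2 to 90.7 CPM in eyFLP ctrl, against 18 to 25.6 CPM in yki3SA and 65.4 to 82.2 CPM in MARCM ctrl (difference 1.87 ± 0.17, adjusted p = 5.2e-07). The zinc-finger gene zfh1, active in muscle precursors and hemocytes, stood at 50.4 and 25.2 CPM in wts- and 25.2 to 34.7 CPM in eyFLP ctrl, with no call (0.39 ± 0.21), and at 7.15 to 9.51 CPM in yki3SA against 37.7 to 45.9 CPM in MARCM ctrl (difference 2.69 ± 0.26). With run 2 the differences of trol and zfh1 were 0.81 and 2.85, both called. Of 17 muscle and myoblast markers 2 rose and 4 fell in wts-, and 1 rose and 10 fell with yki3SA, with summed levels of 510 to 557 CPM in wts- and 762 to 948 CPM in eyFLP ctrl, and 414 to 485 CPM in yki3SA and 882 to 975 CPM in MARCM ctrl. No muscle marker was at 0 in a whole group, and their part in the zfh1 result was not tested. Over 22 basement membrane and adhesion genes, 8 had the higher and 2 the lower response in wts- (45.5%). Among all genes tested, 11.6% were called in the difference, and 15.4% fell in wts- and 23.8% with yki3SA.

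**Figure D5:**
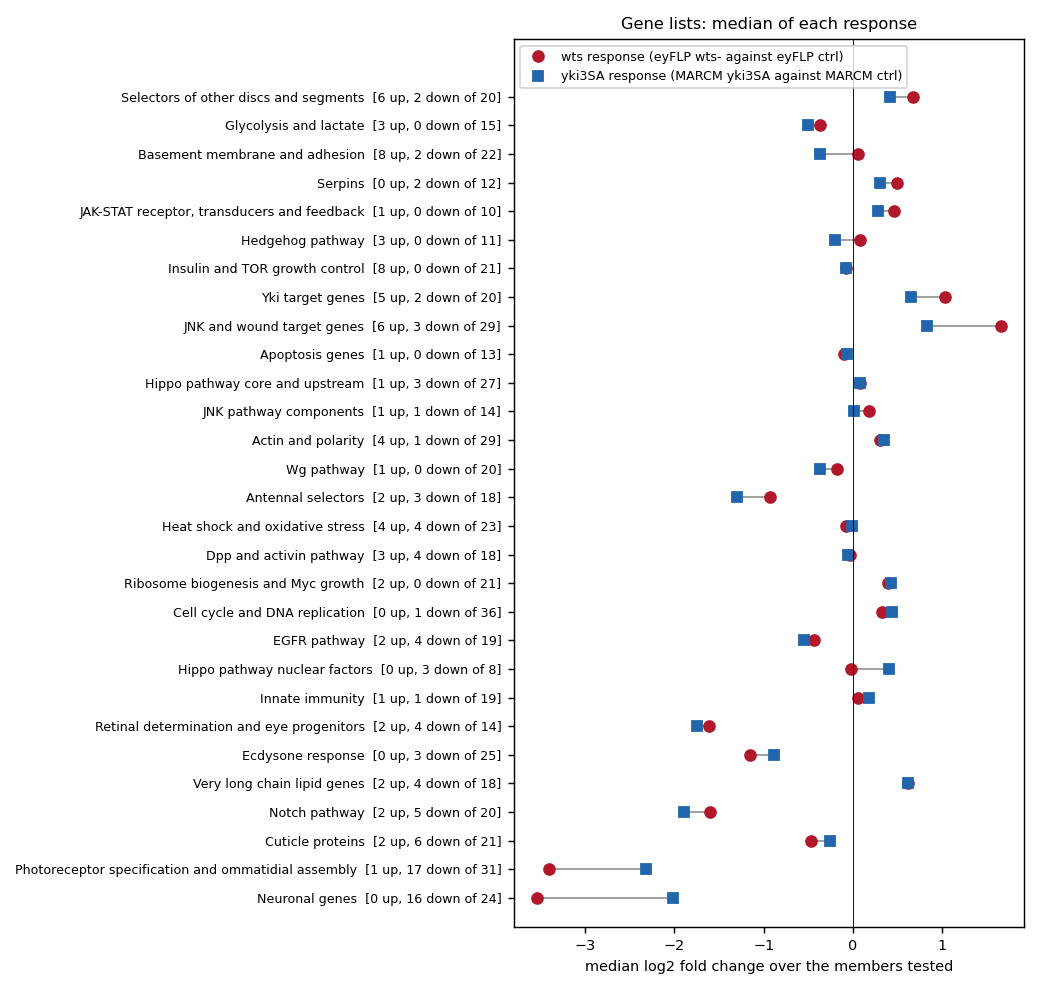
For each gene list drawn, the red circle is the median log2 fold change of wts- against eyFLP ctrl over the members tested and the blue square that of yki3SA against MARCM ctrl; brackets give how many members had a called difference of responses, up meaning the more positive response in wts-. Lists with fewer than 8 members tested and those for other cell types, sex and strain are not drawn. Of those drawn, the photoreceptor and neuronal lists have medians furthest apart, at -3.41 and -3.53 in wts- and -2.32 and -2.01 with yki3SA, and the cell cycle list lies at 0.32 and 0.43.

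Many strong responses were close in both models. The lamin gene LamC, a nuclear envelope gene, rose to 215 and 264 CPM in wts-, against 25.4, 25.7 and 25.6 CPM in eyFLP ctrl, and to 460, 409, 415, 304 and 284 CPM in yki3SA, against 39.9, 40.8, 34.7, 26.0 and 30.9 CPM in MARCM ctrl. The responses were 3.23 ± 0.21 and 3.45 ± 0.15, and the 95% interval of the difference ran from -0.74 to 0.31. The pherokine gene Phk-3 rose by 3.52 and 3.41 (interval -0.24 to 0.45) and the actin nucleator gene spire (spir) by 3.01 and 3.34 (interval -0.82 to 0.17). The small heat shock gene Hsp23 fell to 303 and 222 CPM in wts-, against 2605 to 3236 CPM in eyFLP ctrl, and to 150 to 329 CPM in yki3SA, against 2171 to 2517 CPM in MARCM ctrl (interval -0.70 to 0.61). The zona pellucida protein gene trynity (tyn) fell by 2.86 and 2.95 (interval -0.37 to 0.55). In run 2 the yki3SA responses of LamC, Phk-3, spir, Hsp23 and tyn were 3.27, 3.71, 3.12, -2.38 and -3.45.

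The cytokine genes of the JAK-STAT pathway, whose 3 ligands promote growth and regeneration, rose in both models, and none was called in the difference. The ligand upd1 (os in the table) had 29.7 and 21.7 CPM in wts- and 1.38 to 2.12 CPM in eyFLP ctrl, against 17.8 to 22.6 CPM in yki3SA and 1.67 to 3.32 CPM in MARCM ctrl. Its difference was 0.92 with an interval from 0.26 to 1.58 (adjusted p = 0.0693), and it was called with the replicate block within the MARCM libraries (0.91, adjusted p = 0.0365) and without MARCM ctrl replicate 4 (1.08). For upd2 the difference was -0.68 with an interval from -1.60 to 0.23, and upd3, which averaged 10.4 CPM in wts- but had 2 counts in all eyFLP ctrl libraries, against 6.16 to 10.5 CPM in yki3SA and 0.0839 to 0.489 CPM in MARCM ctrl, was not called (adjusted p = 0.103). These results do not show that the ligands responded alike.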

How the data were processed

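RNA was measured by QuantSeq 3' FWD sequencing of polyA RNA from dissected discs, so each transcript is read near its 3' end. The authors deposited whole-number counts per gene symbol. Adapter trimming with cutadapt, quality checks with FastQC and alignment with STAR 2.6.1d to dm6 are named in the submitters' processing notes; the sources used here name no counter, annotation or strand setting, and reads of overlapping genes cannot be told apart. The deposited count columns of the 15 libraries were identical in both tables that hold them.

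The 15 libraries were fitted in 1 model with a mean per group (edgeR 4.0.16 in R 4.3.3: filterByExpr, TMM factors, robust quasi-likelihood F test), which kept 8499 of 16727 symbols, and the 4 group means gave each response, the difference of responses and the difference between controls. Benjamini-Hochberg adjustment ran over every gene in the fit, with a threshold of 0.05. Standard errors are approximate, being computed from each F statistic. Library totals of 5838706 to 15273835 counts set the precision; counting intervals cover counting error only. Run 2 and optix libraries were fitted with their own controls. In simulated counts 100 genes were changed by 1 and 100 by 2 on the log2 scale, all drawn from genes with a mean of 10 CPM or more. The difference test recovered 81% and 97%, and 6.32% of its calls were false, over 8393 genes. Recovery at lower levels was not simulated, and the simulated libraries were independent of each other.

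Within the MARCM libraries each same-numbered pair of yki3SA and MARCM ctrl deviated together (correlations of 0.458, 0.382, 0.484, 0.428 and 0.748 with their group means removed). The eyFLP pairs did not (-0.0603 and 0.00526). Of all 15 libraries, 6 had their highest such correlation outside their own group with a library of the same number. The labels give replicate numbers and state no pairing, and the main fit uses no pairs. Genes named in the text were yki and wts, those with the largest opposite, unequal or close responses with a highest group mean of 10 CPM or more and no overlap of the responses between models, and up to 4 members of each list with the largest called difference. The comparison and the gene lists were chosen with earlier results of these data known. Alternatives were other scaling factors, DESeq2 1.42.0, limma-voom (limma 3.58.1), other filters, a replicate block, added optix libraries, run 2 libraries and each library left out. Promoter motifs were not analysed here.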

Additional observations from a re-analysis of the deposited data

Results flagged for a closer look

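In groups of 5 libraries, a library was set apart where its gap to the nearest other exceeded the 95% critical value of Dixon's test for the range of the group. This held in 26 of 316 groups (8.23%), 16 in yki3SA and 10 in MARCM ctrl, where chance gives about 1 in 20. Levels are in CPM, with the range of the other 4 libraries beside each.

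MARCM ctrl replicate 2 was high in 5 genes: Thor at 46.7 (others 1.86 to 9.72), Lsp1beta at 58.0 (8.30 to 12.5), spok at 67.2 (0.684 to 18.7), Mmp1 at 45.0 (22.0 to 26.5) and Cyp310a1 at 6.51 (2.43 to 3.42). Without that library the difference of responses was called for each of the 3 of these genes that are called with it, namely Thor, Mmp1 and Cyp310a1.

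yki3SA replicate 1 was low in egr at 3.49 (5.73 to 6.60), run at 1.06 (1.74 to 1.87), dac at 5.04 (11.0 to 12.2), so at 10.9 (16.0 to 18) and salr at 14.8 (17.0 to 17.6). It was high in CG5278 at 14.7 (6.11 to 8.58) and in Or49b at 0.0812 (all others at 0). yki3SA replicate 5 was high in yki at 67.4 (38.5 to 45.6), Gasp at 754 (593 to 622) and w at 38.1 (29.0 to 30.8), and low in ab at 327 (399 to 409). yki3SA replicate 4 was high in Hr4 at 72.6 (30.1 to 41.3), CG5065 at 18.9 (11.9 to 13.8) and Actbeta at 2.09 (1.04 to 1.24). Mlc2 was high in yki3SA replicate 3 at 15.3 (4.25 to 7.35) and CG15704 in replicate 2 at 2.20 (1.24 to 1.39).

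In MARCM ctrl, replicate 1 was low in pnr at 19.6 (25.1 to 25.8) and high in Ccp84Ad at 1.09 (0.419 to 0.587), replicate 3 was low in danr at 45.5 (52.2 to 54.5), and replicate 5 was low in gk at 20.3 (24.0 to 25.3) and CG34391 at 14.8 (16.5 to 17.1).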

How the results depend on the processing

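With the replicate pairs of the MARCM libraries as a block (an alternative added after the data were seen), the difference of responses was called for 1540 genes, opposite responses for 149, a single response for 817 and the control difference for 1901. With a replicate block over all libraries the control difference had 2889 calls. With optix libraries added, 58 genes were opposite and 374 differed between controls. Tested against an absolute log2 difference of 1, 231 genes were called (86 and 145). Leaving out each library in turn gave 627 to 1034 calls of the difference, 56 to 100 opposite genes, 248 to 420 of the same direction and different size, 303 to 543 with a single response, 584 to 956 close responses and 319 to 746 control calls.

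Among the 158 named genes, here and below, a change of sign was counted only where the difference was called in the main or the other fit. So counted, none changed sign under the other scaling factors, filters, tools or blocks or without any library. Of the 137 with a called difference, all kept the call with DESeq2, 125 with limma-voom, 134 with the block over all libraries (Thor, dac and Hr4 lost it) and 105 without wts- replicate 2. With the MARCM block os gained its call, and daw, Hr4, CG5065, CG9747 and Thor lost theirs. With run 2 MARCM libraries in place of run 1, which moved the median difference of all genes by -0.109, 69 of the 137 calls held and 28 of the 158 differences changed sign, of which CG7294 and spz6, not called before, were called (adjusted p = 0.0131 and 0.0485); the cause was not tested. These were Cyp310a1 (0.4666), CG17109 (-1.324), Tdc2 (-1.623), Lcp9 (0.1844), CG7294 (1.409), spz6 (1.461), dm (-0.05826), fne (3.435), Rim (0.3965), Syt1 (1.033), dac (0.01113), danr (0.9299), E(spl)mgamma-HLH (0.4507), vn (-0.3807), E(spl)mdelta-HLH (0.2586), sty (-0.1937), E(spl)m8-HLH (0.2648), kek1 (0.2181), salr (0.4773), Notum (-0.1262), Non1 (-0.2536), Eip93F (0.8597), ImpE3 (2.724), CG5065 (0.005614), dia (-0.04624), Spn43Aa (0.9844), let-7-C (0.0251) and kirre (0.789). Low counts limit the differences of genes near 0 in wts-, and with 2 wts- libraries that group sets the precision.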

Other observations

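The share of members called in the difference varied between the remaining gene groups, against 11.6% of all genes. Over all genes tested, 13.1% rose and 15.4% fell in wts-, and 23.5% rose and 23.8% fell with yki3SA. Of 21 ribosome biogenesis genes 9 rose in wts- and 14 with yki3SA, and 2 had the higher response in wts- (9.52%). Of 20 Wg pathway genes 8 fell in wts- and 9 with yki3SA, and 1 differed (Notum). Of 25 ecdysone response genes 12 fell in wts- and 16 with yki3SA, and 3 fell further in wts-. Of 19 EGFR pathway genes 9 and 11 fell, with 2 and 4 differing in the higher and lower direction (31.6%). Of 18 Dpp and activin genes 7 differed (38.9%), 3 and 4 by direction. Of 29 actin and polarity genes 14 rose in wts- and 17 with yki3SA, and 5 differed (17.2%), of which cher and qua had the largest differences. Of 15 glycolysis genes 6 fell in wts- and 10 with yki3SA, and 3 were higher in wts- relative to yki3SA. Of 23 heat shock and oxidative stress genes 8 differed (34.8%), 4 in each direction.

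No member of the fat body list, a check for another tissue, was called in the difference. The list fell in 2 of 10 members in wts- and in 10 of 10 with yki3SA, with near medians (-2.29 and -2.55). Of all genes, 15.4% and 23.8% fell. The summed level of the list was 49.1 to 84.5 CPM in wts- and 260 to 456 CPM in eyFLP ctrl, and 32.9 to 79.4 CPM in yki3SA and 292 to 636 CPM in MARCM ctrl. Of 7 central brain markers 1 rose and 5 fell in each model, and 2 had the higher response in wts- (insc and dpn). Their summed level was 623 to 637 CPM in wts- and 902 to 970 CPM in eyFLP ctrl, and 569 to 600 CPM in yki3SA and 854 to 981 CPM in MARCM ctrl. The one that rose, insc, which orients asymmetric division, rose to 24.6 and 25.9 CPM in wts-, against 2.27 to 3.28 CPM in eyFLP ctrl, and to 9.51 to 14.9 CPM in yki3SA, against 3.86 to 5.31 CPM in MARCM ctrl (difference 1.80).

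By chromosome, 19 of 80 genes tested on chromosome 4 were called in the difference (23.8%), against 10.1% to 12.8% on the other arms. This count was chosen after its value was seen and has no test.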
